A study of Mus musculus with 10 samples.

Results

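Matrix metalloproteases, ADAMTS proteases and TIMPs were represented by 51 genes of 28987 in the files. They were taken by symbol: every mouse gene whose name starts with Mmp or Timp and a digit, or with Adamts, which brings in the Adamts-like (Adamtsl) genes. There were 23 Mmp, 19 Adamts, 5 Adamtsl and 4 Timp genes. Of these, 33 reached 1 TPM (transcripts per 1e6, a level scaled for gene length and library size) in at least 2 of the 10 libraries and were tested among 14166 genes: 14 Mmp, 11 Adamts, 5 Adamtsl and 3 Timp genes.

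The RNA came from cultures of male C57BL/6 mice aged 6 to 8 weeks, whose inguinal fat was minced, digested and grown until confluent; the source is given as white adipocytes, while the treatment text speaks of adipose tissue. Each of 5 groups held 2 libraries and was treated for 24 h, with saline, with the recombinant TNF-family ligands BAFF or APRIL at 500 ng/ml, with bacterial lipopolysaccharide (LPS) at 100 ng/ml, or with norepinephrine at 1 mM. No genetic change is named for any group. The labels do not say whether a group's libraries stem from different animals or cultures, and the p-values therefore reflect a spread between libraries that may be technical.

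These proteins remodel the extracellular matrix. Matrix metalloproteases (MMPs) are zinc enzymes, made mostly as inactive precursors, that cut collagens, other matrix proteins and secreted signals, and the membrane-type MMPs do so at the cell surface. ADAMTS proteases trim procollagens and cut proteoglycans such as versican, ADAMTS-like proteins resemble them but lack the protease domain, and TIMPs are secreted proteins that bind and block the active enzymes. In fat, matrix turnover of this kind accompanies the growth and inflammation of the tissue.

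The TPM of a library added up to 953553 at the lowest and 964726 at the highest, and 12845 to 13115 genes had at least 1 TPM; the files hold no counts, so depth is unknown and the spread between libraries is the only error. The libraries labelled APRIL stood apart, with correlations to the other 8 of 0.850 to 0.886 across genes, against 0.948 to 0.991 among those 8. They also went against the male label, since 4 Y-linked genes summed to 0.489 and 0.775 TPM in them and to between 93.8 and 123 TPM elsewhere. They are therefore called the libraries labelled APRIL throughout. The label of adipocytes was met by Adipoq at 925 and 1062 TPM with saline, but the 7 fibroblast and progenitor markers summed to 9415 and 8207 TPM and the 7 macrophage markers to 1234 and 406 TPM there, so markers of several cell types were present. In such bulk samples a change in the number of cells of a type and a change in RNA per cell cannot be told apart.

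Within the 10 Mmp genes on chromosome 9, which lie side by side from position 7272514 to 7699585 of mm10 (427.1 kb) with no other protein-coding gene annotated between them, are the stromelysins Mmp3 and Mmp10, and promoters of this cluster are shown because Mmp3 and Mmp10, 2 of the 9 members called with LPS, lie in it. The other 7 lie elsewhere. The start that RefSeq gives lies 10 bases from that of GENCODE for Mmp10 and 27 for Mmp8. The stretches are the 120 bases before the RefSeq start on the plus strand of GRCm38 (mm10): chr9:7272394-7272513 for Mmp13, chr9:7445702-7445821 for Mmp3, chr9:7502222-7502341 for Mmp10, chr9:7558309-7558428 for Mmp8 and chr9:7691970-7692089 for Mmp7. Both strands were searched, and capitals mark what was found. One set of capitals is the core motif of AP-1 factors, TGANTCA. The other is TATAAA, the letters of the classical TATA box, which positions the start of transcription.
Mmp13: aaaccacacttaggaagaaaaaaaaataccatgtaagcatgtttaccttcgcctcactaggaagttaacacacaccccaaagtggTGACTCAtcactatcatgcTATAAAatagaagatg
Mmp3: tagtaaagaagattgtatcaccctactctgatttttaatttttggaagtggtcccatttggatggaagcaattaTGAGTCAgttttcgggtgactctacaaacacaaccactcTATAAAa
Mmp10: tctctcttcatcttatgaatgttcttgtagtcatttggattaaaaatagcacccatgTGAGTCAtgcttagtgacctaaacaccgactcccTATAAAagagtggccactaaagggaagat
Mmp8: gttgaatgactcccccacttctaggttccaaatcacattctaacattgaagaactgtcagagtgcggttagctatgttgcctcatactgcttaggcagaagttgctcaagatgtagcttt
Mmp7: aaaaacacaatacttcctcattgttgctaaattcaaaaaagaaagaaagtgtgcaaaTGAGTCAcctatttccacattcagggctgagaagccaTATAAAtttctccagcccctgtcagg
The AP-1 letters began 46 bases before the RefSeq start of Mmp3, 63 before Mmp10 and 35 before Mmp13. TATAAA began 7, 29 and 16 bases before these starts. In the 250 bases before any of a gene's RefSeq starts, 8 of the 10 cluster genes held them and 7 held TATAAA, while 0 and 3 of the 26 other members with an entry did. Among the 27025 genes with a promoter entry, 7.82% held the AP-1 letters and 14.3% TATAAA. The NF-kB consensus stood before Mmp12 alone in the cluster and before Adamts9, Adamts20 and Mmp25 elsewhere (8.23% of all genes), and the cAMP response element TGACGTCA before 0 of the 36 members (1.77%). Such a match describes letters only. Mmp7, the matrilysin, carries both motifs and was listed at 0 in all 10 libraries, and Mmp8, the neutrophil collagenase, carries neither in this window and reached 2.56 TPM.

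With saline, transcripts of the inhibitors and of procollagen processing led. Timp1, a broad MMP inhibitor, was the highest member at 1249.5 and 1083 TPM. Adamts2, which removes the N-terminal propeptide of fibrillar procollagens, followed at 922 and 871 TPM. Next came the stromelysin-3 gene Mmp11 at 294 and 305 TPM and Timp2, an inhibitor that also helps activate pro-MMP2, at 299 and 271 TPM. The ranges of Mmp11 and Timp2 overlapped, whereas Timp1 lay clear of Adamts2 and both lay clear of the rest.

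The membrane-type protease Mmp14, which activates pro-MMP2 at the cell surface, stood at 203 and 182 TPM. The gelatinases Mmp2 and Mmp9, which cut denatured collagen, had 162 and 128 TPM and 159 and 134 TPM, ranges that overlapped. Mmp23 (membrane-anchored before cleavage) had 90.0 and 88.0 TPM. The macrophage elastase Mmp12 had 67.8 and 28.5 TPM and Mmp19 31.4 and 28.5 TPM, an overlap in which the first saline library decides the order. Timp3, an inhibitor that stays bound to the matrix and also blocks ADAMTS4 and ADAMTS5, stood at 34.9 and 60.3 TPM. Timp3 and Mmp9 therefore differed by more than their spread, whereas Timp3 and Mmp12 did not.

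The aggrecan- and versican-cutting proteases Adamts5 and Adamts1 had 40.8 and 30.0 TPM and 35.7 and 28.4 TPM, and Adamts4, of the same group, 14.6 and 11.4 TPM. The Adamts-like genes ran from 0.706 TPM (Adamtsl3) to 27.1 TPM (Adamtsl4) in the saline libraries. Of the 18 members not tested, 16 stayed under 1 TPM in every library. The exceptions, each with a single library over that level, were Adamts3, a second procollagen N-proteinase, and Mmp8, both in an LPS library. Timp4 stayed at 0.524 TPM or less.

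**Figure D1:**
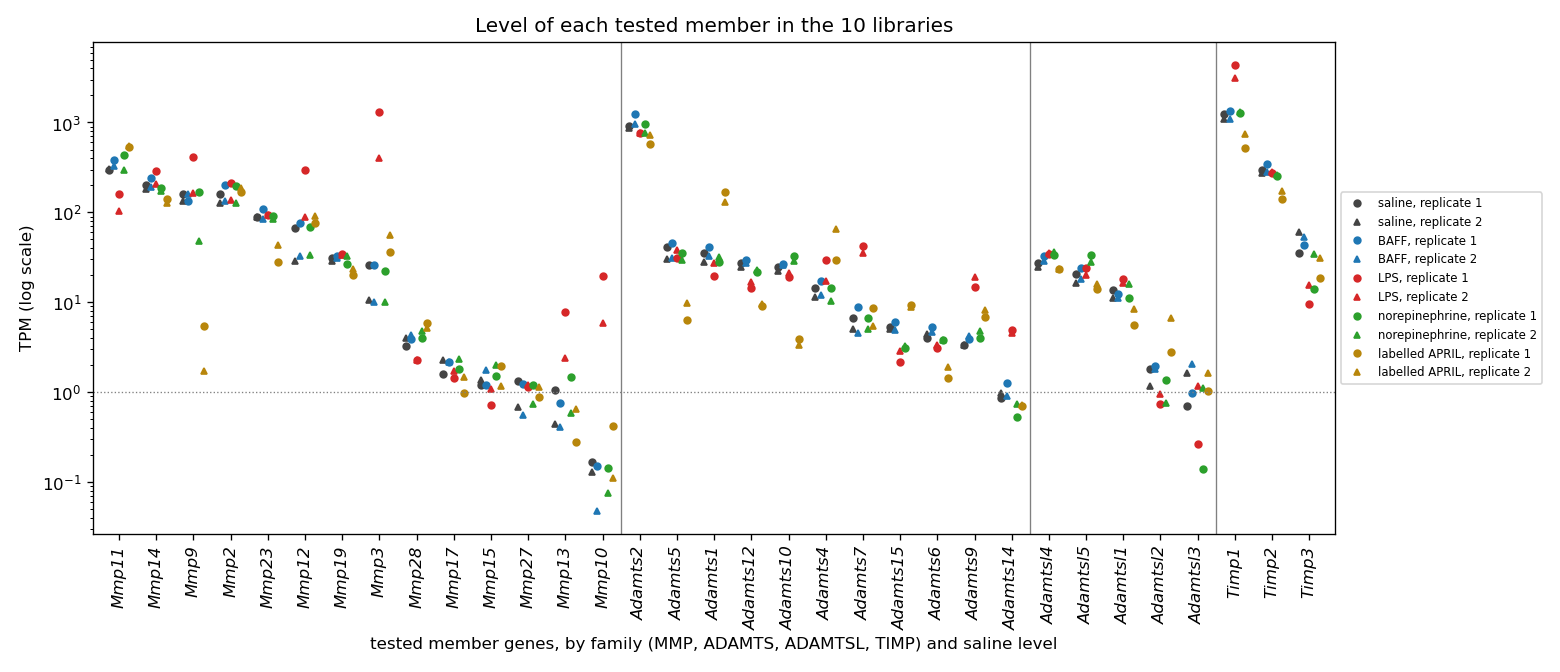
TPM of the 33 tested members in the 10 libraries, on a log scale, by family and by saline level; circles are replicate 1, triangles replicate 2, colours the treatments, and the dotted line 1 TPM. Mmp3 reaches 1306 and 405 TPM with LPS against 56.8 TPM or less in the other 8 libraries, and Mmp9 lies at 5.39 and 1.73 TPM in the libraries labelled APRIL.

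As a whole the members took 0.352 to 0.463% of the transcripts in the saline, BAFF and norepinephrine libraries, 0.889 and 0.593% in the LPS libraries, and 0.269 and 0.321% in the libraries labelled APRIL. Summed over all 23 genes, the MMPs had 1042 and 914 TPM with saline and 2842 and 1251 TPM with LPS. The TIMP sum was 1583 and 1415 TPM with saline and 4672 and 3420 TPM with LPS. Both LPS libraries were above the other 8 in each sum, though the LPS libraries differed more from each other than the saline libraries did. The ADAMTS sum was 953 and 960.4 TPM with LPS, below the saline libraries (1086 and 1008 TPM) and the BAFF libraries (1428 and 1119 TPM). Both values lay inside the range of the norepinephrine libraries (1114 and 898 TPM) and of those labelled APRIL (819 and 975 TPM).

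Mmp3 and Timp1 took larger shares of these sums with LPS. Mmp3 made up 39.2 ± 9.60% (SD, n = 2 libraries, as for every ± SD here) of the MMP sum with LPS and 1.81 ± 0.934% with saline, and Timp1 made up 92.6 ± 1.89% and 77.7 ± 1.69% of the TIMP sum. Adamts2 made up 85.7 ± 1.08% of the ADAMTS sum with saline. Inhibitor to MMP transcript ratios were 1.52 and 1.55 with saline, 1.43 and 1.45 with BAFF, 1.64 and 2.73 with LPS, and 1.26 and 1.97 with norepinephrine. In the libraries labelled APRIL they were 0.660 and 0.870. The ratio was thus lowest in the libraries labelled APRIL, and the LPS and norepinephrine libraries overlapped.

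**Figure D2:**
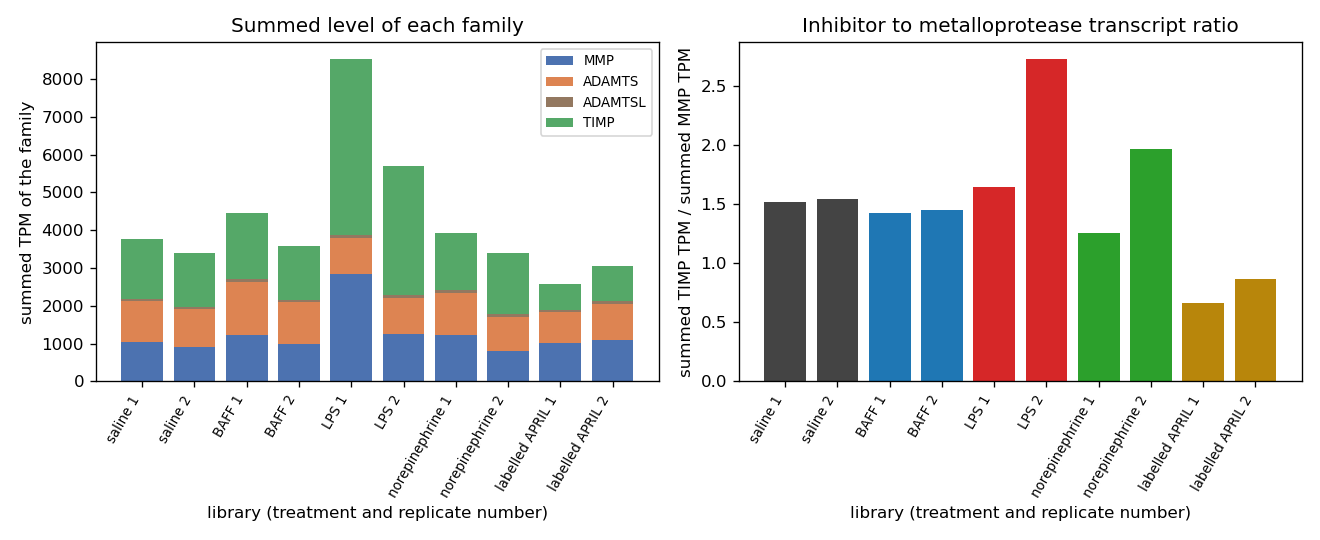
Left, summed TPM of the 4 families in each library; right, the ratio of summed TIMP to summed MMP TPM. The LPS bars total 8545 and 5707 TPM, the other 8 bars 4448 TPM or less, and the ratio lies under 1 in the libraries labelled APRIL alone.

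LPS against saline asks how the cultures respond to a bacterial stimulus. Transcripts of the stromelysins Mmp3 and Mmp10, the inhibitor Timp1 and the proteases Adamts7, Adamts9 and Adamts14 rose, and those of Mmp11, Adamts12 and Adamts15 fell. By limma on log2(TPM + 1), with Benjamini-Hochberg adjustment over all tested genes and a call at adjusted p under 0.05, 6 of the 33 members were higher and 3 lower. Over all tested genes 2.87% were called higher and 0.932% lower. Of the 6, Mmp10 reached 1 TPM in the LPS libraries alone and Adamts14 in both LPS libraries and 1 BAFF library, so they entered the test through the group in which they were high and the count of 6 is not read against that share. The median log2 fold change of the members was 0.13 and that of all tested genes -0.01. An unadjusted p under 0.05 by limma was reached by 14 members, Mmp10 and Adamts14 among them. The share of all tested genes at that level was not computed, so such counts, here and below, are not read as a result. Fold changes are given with their standard errors on this log2(TPM + 1) scale, which understates the change of low genes. The 4 comparisons with saline share its libraries. Without the libraries labelled APRIL in the fit the count was again 6 and 3, with the same genes called. In a fit of the 4 compared libraries alone the count of 9 became 3 (Adamts7, Adamts9 and Adamts14). Over all 14166 tested genes the calls fell from 539 to 226 in that fit. Leaving out LPS replicate 1 or either saline library also left fewer members called, and fewer of all tested genes.

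Among the stromelysins, proteases of broad range that also activate other pro-MMPs, Mmp3 (ENSMUSG00000043613, chromosome 9, 7445822 to 7455975) stood at 25.8 and 10.5 TPM with saline, 26.0 and 10.2 with BAFF, 22.5 and 10.1 with norepinephrine, 36.6 and 56.8 under the label APRIL and 1306 and 405 with LPS. Its LPS libraries were far above the other 8, and replicate 1 was above replicate 2 in every group except APRIL. The rise was 5.37 ± 0.70 by limma (adjusted p = 0.00700). It fell short of a call without LPS replicate 1 (4.53, adjusted p = 0.0503) or without saline replicate 2 (4.77, adjusted p = 0.0684), and with the 4 compared libraries alone (adjusted p = 0.0651).

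Mmp10 (ENSMUSG00000047562, chromosome 9, 7502352 to 7510240), the next member but 1 after Mmp3 in the cluster, stood at 0.167 and 0.128 TPM with saline, 0.150 and 0.0472 with BAFF, 0.145 and 0.0765 with norepinephrine, 0.422 and 0.110 under the label APRIL and 19.8 and 5.87 with LPS. Since the LPS libraries alone put it over 1 TPM, it could enter the test only by being higher there. Its log2 fold change was 3.38 ± 0.44 by limma (adjusted p = 0.00700), and 0.0522 and 0.0684 were the adjusted p values without saline replicate 1 and without saline replicate 2. With the 4 libraries alone it was 0.0952. Of the 31-base words in its transcripts, 11.9% also occur in Mmp3 transcripts, and in the LPS libraries Mmp10 stood at 1.52 and 1.45% of the Mmp3 level; whether reads of one were assigned to the other was not tested.

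The collagenase Mmp13, which cuts fibrillar collagen, and the macrophage elastase Mmp12 did not pass the test. Mmp13 (ENSMUSG00000050578, chromosome 9, 7272514 to 7283331) stood at 1.06 and 0.446 TPM with saline, 0.767 and 0.413 with BAFF, 1.48 and 0.589 with norepinephrine, 0.278 and 0.647 under the label APRIL and 7.83 and 2.41 with LPS. Its LPS libraries were the highest of the 10, with a log2 difference of 1.67 ± 0.45 by limma (adjusted p = 0.0960); without LPS replicate 2 the adjusted p was 0.0280. Mmp12 (ENSMUSG00000049723, chromosome 9, 7344381 to 7369499) stood at 67.8 and 28.5 TPM with saline, 76.8 and 32.9 with BAFF, 69.2 and 34.0 with norepinephrine, 75.6 and 91.3 under the label APRIL and 293 and 89.3 with LPS. There the lower LPS library was inside the range of the libraries labelled APRIL, and the log2 difference was 1.86 ± 0.67 by limma (adjusted p = 0.216).

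Replicate numbers bear on both genes. In the saline, BAFF, LPS and norepinephrine groups the first replicate exceeded the second for Mmp3 (2.23 to 3.22 times), Mmp12 (2.04 to 3.29 times) and Mmp13 (1.86 to 3.25 times), while in the libraries labelled APRIL the ratios were 0.644, 0.828 and 0.429. Within one replicate number, the log2 difference between LPS and saline was 5.61 and 5.14 for Mmp3, 2.10 and 1.61 for Mmp12, 2.10 and 1.24 for Mmp13, and 4.16 and 2.61 for Mmp10. With the replicate number as a block in the 8 libraries other than APRIL, a fit added after the values were seen, limma called Mmp12 (adjusted p = 0.00308) and Mmp13 (adjusted p = 0.0163) higher. In that fit 10 members were higher and 5 lower, where 6.99% and 4.64% of all tested genes were. Mmp10 and Adamts14 are among the 10, so that count is not read against the share. All 9 members called without the block were called with it, among them Mmp3 (adjusted p = 0.000162), Mmp10 (0.00708), Adamts7 (0.00106), Timp1 (0.00204), Mmp11 (0.0122), Adamts12 (0.0126) and Adamts15 (0.0229). Adamts4 (0.77, adjusted p = 0.0129) and Adamtsl4 (0.42, adjusted p = 0.0465) were higher too, and Timp3 (-1.82, adjusted p = 0.00629) and Mmp28 (-0.49, adjusted p = 0.0422) lower. The block fitted on all 10 libraries also gives those labelled APRIL the same replicate shift, though their ratios for Mmp3, Mmp12 and Mmp13 went the other way. How far this sets the 2 fits apart was not tested. Of Mmp12, Mmp13, Adamts4, Adamtsl4, Timp3 and Mmp28, the block fitted on all 10 libraries called Timp3 alone. The adjusted p there was 0.0548 for both Mmp12 and Mmp13, 0.0840 for Adamtsl4, 0.114 for Mmp28 and 0.390 for Adamts4.

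The replicate numbers also split the macrophage markers. The 7 markers, of which 6 were tested, summed to 1039 to 1498 TPM in replicate 1 and to 277 to 472 TPM in replicate 2 of those 4 groups. With LPS 0 of the 6 were called, the sums were 1498 and 395 TPM against 1234 and 406 TPM with saline, and Ptprc, which marks all leukocytes, stayed at 0.218 TPM or less in every library. Adgre1, the macrophage gene for F4/80, had 29.8 and 9.23 TPM with saline and 68.8 and 21.6 TPM with LPS. It does not stand for the list, since the 6 tested macrophage markers had a median log2 fold change of -0.04. Of these 6 markers, 1 had an unadjusted p under 0.05 by limma. Of the 6 neutrophil markers S100a8 alone was tested and it was called higher, from 1.21 and 0.369 TPM with saline to 19.5 and 13.9 TPM with LPS. The neutrophil sums were 2.18 and 1.12 TPM with saline and 21.5 and 14.5 TPM with LPS, with S100a9 listed at 0 in all 10 libraries. Of the 7 fibroblast and progenitor markers, 6 were tested and 3 were called higher (Dcn, Pdgfra and Pi16), while their sums overlapped, at 9415 and 8207 TPM with saline and 9339 and 8613 TPM with LPS. The adipocyte sums were 7825 and 8742 TPM with saline and 5474 and 6064 TPM with LPS, with 0 of 8 called. Smooth muscle and pericyte markers summed to 1441 and 1517 TPM with saline and 1069 and 1212 TPM with LPS, and Myh11 was called lower among the 4. The part of these cell types in the changes of the members was not tested.

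**Figure D3:**
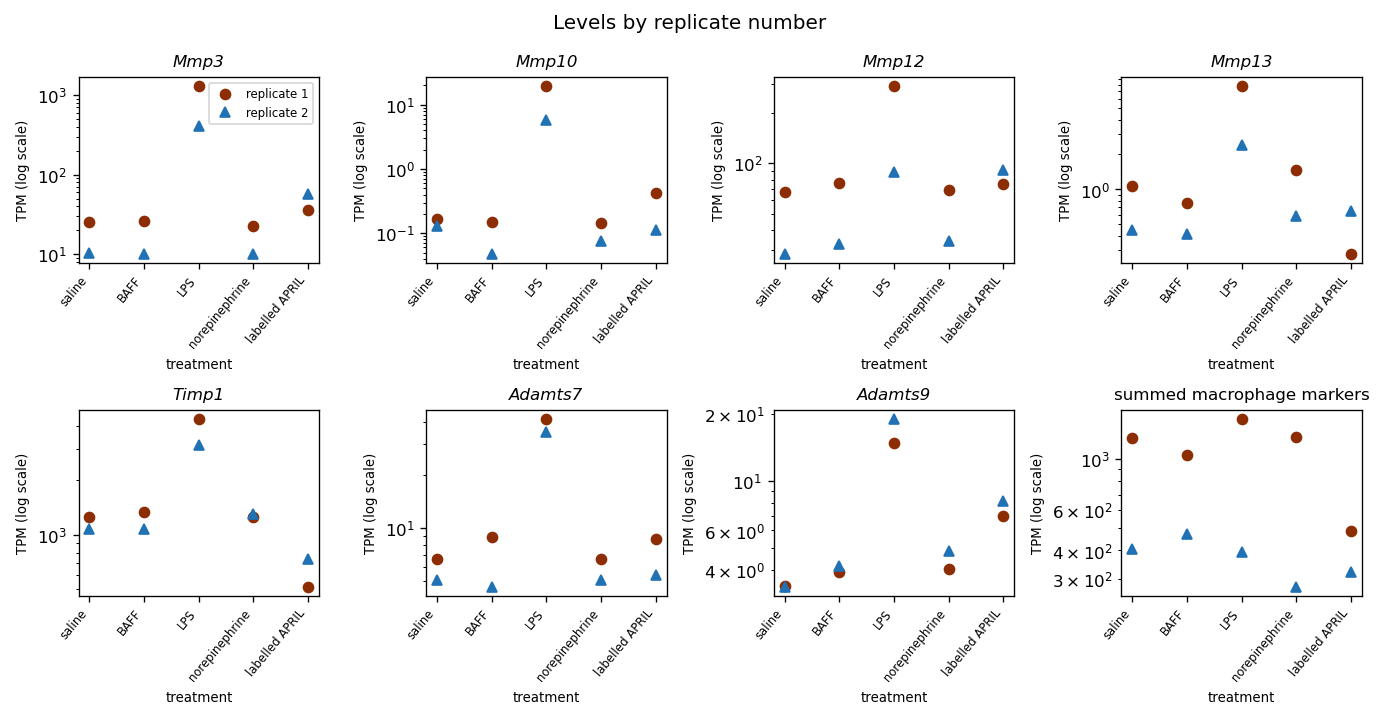
TPM on log scales of 7 members and of the summed macrophage markers in each library, by treatment; circles are replicate 1 and triangles replicate 2. Mmp3, Mmp12 and Mmp13 lie higher in replicate 1 than in replicate 2 in all groups except APRIL, as the macrophage sum does in all 5 groups, whereas Adamts9 is higher in replicate 2 with LPS.

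Along the cluster the difference was not shared by all genes. Mmp1b, a collagenase gene, had 0.397 and 0.164 TPM with LPS and 0.0270 TPM or less elsewhere, and Mmp8 had 2.56 and 0.936 TPM with LPS and 0.334 TPM or less elsewhere, both too low to test. Mmp27 had 1.34 and 0.680 TPM with saline and 1.15 and 1.19 TPM with LPS, overlapping ranges. Mmp20, the enamel protease, and Mmp1a stayed at 0.0621 TPM or less.

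**Figure D4:**
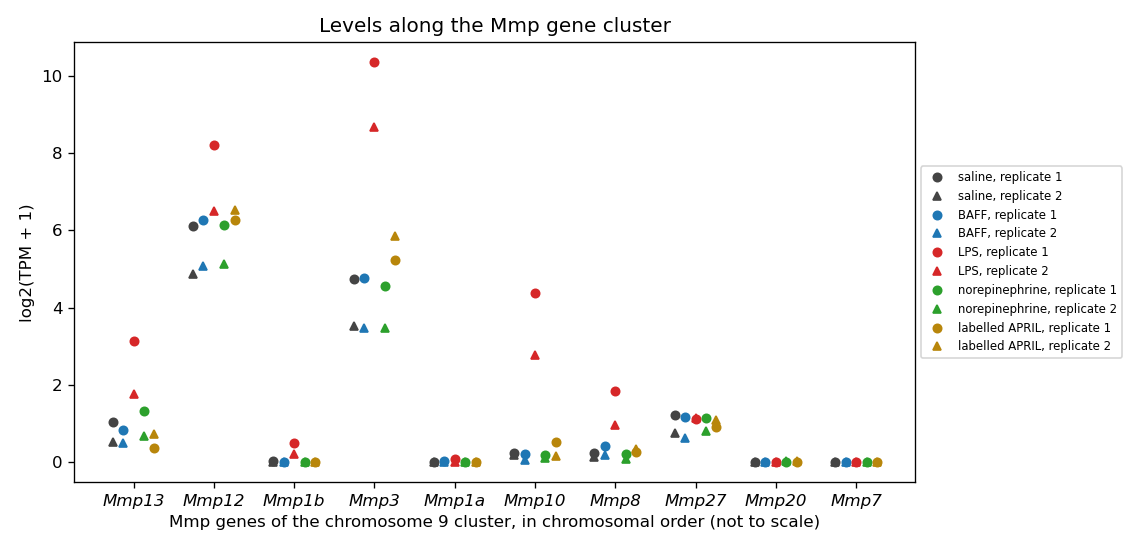
log2(TPM + 1) of the 10 Mmp genes of the chromosome 9 cluster in chromosomal order, not to scale, with circles for replicate 1 and triangles for replicate 2. From Mmp13 to Mmp8 the LPS libraries lie highest for Mmp13, Mmp1b, Mmp3, Mmp10 and Mmp8; for Mmp27, Mmp20 and Mmp7 they do not stand out.

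Of the inhibitors, Timp1 (ENSMUSG00000001131, chromosome X, 20870166 to 20874735) rose, Timp2 did not pass and Timp3 was lower without a call. Timp1 stood at 1249.5 and 1083 TPM with saline, 1345 and 1085 with BAFF, 1260.1 and 1304 with norepinephrine, 515 and 739 under the label APRIL and 4388 and 3121 with LPS. The LPS libraries were above all others and the libraries labelled APRIL below, with no overlap. Its rise was 1.67 ± 0.22 by limma (adjusted p = 0.00743), and the adjusted p was 0.0588 without LPS replicate 1, 0.0764 without saline replicate 2 and 0.0534 with the 4 libraries alone.

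Timp2 stood at 299 and 271 TPM with saline and 274 and 283 TPM with LPS, a log2 difference of -0.03 ± 0.14 by limma (adjusted p = 0.960). Timp3 (ENSMUSG00000020044, chromosome 10, 86300372 to 86349506) stood at 34.9 and 60.3 TPM with saline, 43.7 and 52.9 with BAFF, 14.2 and 34.1 with norepinephrine, 18.8 and 30.9 under the label APRIL and 9.64 and 15.5 with LPS. The LPS libraries overlapped with norepinephrine replicate 1 and lay below both saline libraries, at -1.82 ± 0.45 by limma (adjusted p = 0.0757). The replicate number as a block gave an adjusted p of 0.00543 on the 10 libraries. Timp3 lies inside the gene Syn3 on the opposite strand, and 21.9% of its 31-base words occur in other genes' transcripts, mostly of Syn3.

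Of the 2 tested procollagen N-proteinases 1 was called. Adamts14 (ENSMUSG00000059901, chromosome 10, 61197112 to 61273438), which trims procollagen like Adamts2, stood at 0.867 and 0.970 TPM with saline, 1.27 and 0.915 with BAFF, 0.537 and 0.737 with norepinephrine, 0.699 and 0.728 under the label APRIL and 4.98 and 4.53 with LPS. Both LPS libraries were above the other 8, of which BAFF replicate 1 alone reached 1 TPM. The rise was 1.58 ± 0.16 by limma (adjusted p = 0.00250). Without the LPS libraries Adamts14 would not have passed the filter, so it could enter the test only by being high there. The far more abundant Adamts2 stood at 922 and 871 TPM with saline and 771 and 772 TPM with LPS (-0.22 ± 0.18, adjusted p = 0.641 by limma), and whether the genes differed in their change was not tested. Adamts3, the untested member of this group, had 0.977 and 1.31 TPM with LPS and 0.784 TPM or less elsewhere.

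Of the 5 tested proteases of the versican- and aggrecan-cutting group, 1 rose and 1 fell. Adamts9 (ENSMUSG00000030022, chromosome 6, 92772699 to 92943492) stood at 3.37 and 3.34 TPM with saline, 3.89 and 4.17 with BAFF, 4.04 and 4.84 with norepinephrine, 6.93 and 8.15 under the label APRIL and 14.7 and 19.1 with LPS. The LPS libraries were highest, those labelled APRIL next, and both pairs were clear of the remaining 6 libraries. Its rise with LPS was 2.03 ± 0.16 by limma (adjusted p = 0.000941) and was called whichever of the 4 libraries was left out; 11.6% of its 31-base words occur in other transcripts, mostly of A730049H05Rik on the opposite strand, and reads of the pair cannot be told apart where the counting does not use strand.

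Adamts15 (ENSMUSG00000033453, chromosome 9, 30899155 to 30922452) stood at 5.26 and 5.05 TPM with saline, 5.99 and 4.97 with BAFF, 3.14 and 3.29 with norepinephrine, 9.37 and 8.81 under the label APRIL and 2.16 and 2.87 with LPS. LPS libraries were the lowest, below the norepinephrine libraries, and the fall was -0.82 ± 0.14 by limma (adjusted p = 0.0236). The call ended without LPS replicate 1 (adjusted p = 0.132), saline replicate 1 (0.147) or saline replicate 2 (0.157), with the 4 libraries alone (0.115), and with no filter on low values (0.0629). Adamts1 (-0.43 ± 0.21, adjusted p = 0.380), Adamts4 (0.77 ± 0.39, adjusted p = 0.405) and Adamts5 (-0.02 ± 0.26, adjusted p = 0.990) did not pass by limma. Adamts4 had 29.5 and 17.3 TPM with LPS against 14.6 and 11.4 TPM with saline, without overlap. Adamts1 had 19.8 and 27.6 TPM with LPS, below the 35.7 and 28.4 TPM of saline, whereas the ranges of Adamts5 overlapped.

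Adamts7 and Adamts12, both known to cut cartilage oligomeric matrix protein (COMP), moved in opposite directions. Adamts7 (ENSMUSG00000032363, chromosome 9, 90163069 to 90208071) stood at 6.65 and 5.07 TPM with saline, 8.93 and 4.61 with BAFF, 6.66 and 5.07 with norepinephrine, 8.62 and 5.42 under the label APRIL and 41.9 and 35.2 with LPS. Its LPS libraries were at least 35.2 TPM and all others at most 8.93 TPM. The rise was 2.53 ± 0.30 by limma (adjusted p = 0.00527), with an adjusted p of 0.0513 without LPS replicate 1 and 0.0595 without saline replicate 2.

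Adamts12 (ENSMUSG00000047497, chromosome 15, 11064790 to 11349231) stood at 27.1 and 24.9 TPM with saline, 29.7 and 27.4 with BAFF, 21.7 and 23.1 with norepinephrine, 9.03 and 9.47 under the label APRIL and 14.4 and 16.6 with LPS. Libraries with LPS lay below those of saline, BAFF and norepinephrine, and those labelled APRIL lay lower still. The fall was -0.71 ± 0.11 by limma (adjusted p = 0.0141), and the adjusted p was 0.0896 when LPS replicate 1 was left out, 0.118 and 0.0858 when saline replicate 1 or 2 was, and 0.0932 with the 4 libraries alone. Comp itself, their substrate, which was picked after its values were seen, stood at 22.4 and 39.7 TPM with saline and 7.73 and 12.4 TPM with LPS (adjusted p = 0.0578 by limma).

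Mmp11 (ENSMUSG00000000901, chromosome 10, 75923222 to 75936496), stromelysin-3, a protease activated inside the cell by furin, stood at 294 and 305 TPM with saline, 384 and 328 with BAFF, 436 and 294 with norepinephrine, 538 and 545 under the label APRIL and 161 and 104 with LPS. Its LPS libraries were the lowest of the 10 and the libraries labelled APRIL the highest. The fall with LPS was -1.20 ± 0.24 by limma (adjusted p = 0.0352), and it missed the threshold in 6 alternatives, the most of the 9 calls: the adjusted p was 0.116 when LPS replicate 2 was left out, 0.154 and 0.212 when saline replicate 1 or 2 was, 0.112 with the 4 libraries alone, 0.0810 with no filter and 0.0515 with median-ratio scaling.

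Gelatinases and membrane-type proteases did not pass with LPS. Mmp9 stood at 159 and 134 TPM with saline, 135 and 161 with BAFF, 169.9 and 47.6 with norepinephrine, 5.39 and 1.73 under the label APRIL and 416 and 163 with LPS. The first LPS library was the highest of the 10, but the second was close to saline and BAFF, and the log2 difference was 0.83 ± 0.66 by limma (adjusted p = 0.633). Mmp2 stood at 162 and 128 TPM with saline and 210.0 and 139 TPM with LPS, overlapping ranges (0.24 ± 0.29, adjusted p = 0.777). Mmp14 had 290.1 and 208 TPM with LPS, above the 203 and 182 TPM of saline (0.35 ± 0.18, adjusted p = 0.388).

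**Figure D5:**
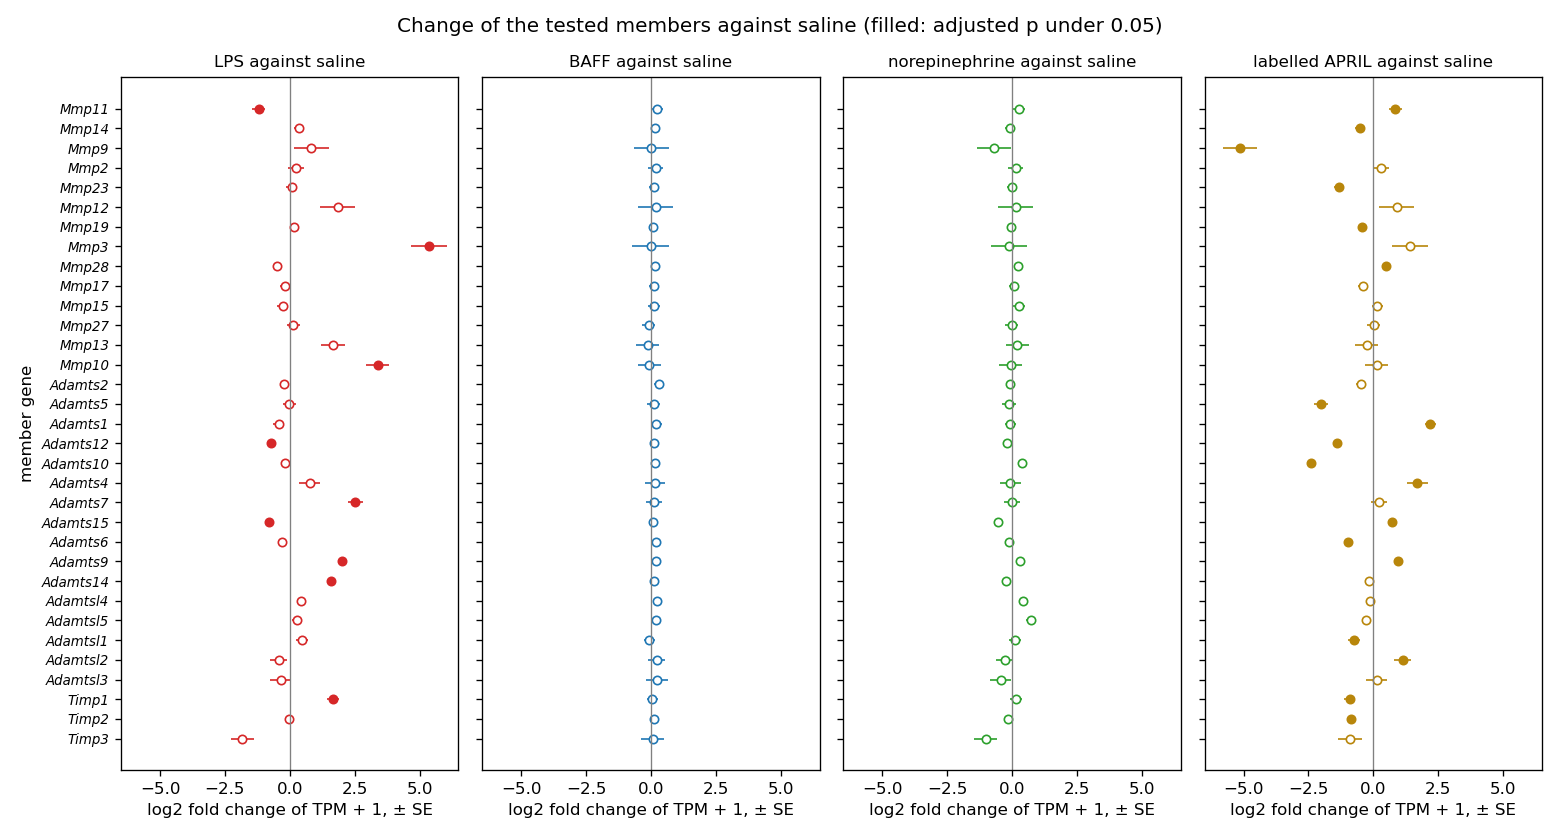
log2 fold change of TPM + 1 against saline, with standard errors, for the 33 tested members and each treatment; filled points passed an adjusted p of 0.05 by limma. With LPS 9 points are filled, with BAFF and norepinephrine none, and with the label APRIL 18.

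BAFF against saline gave no called member. By limma 0 of the 33 were higher and 0 lower, 0 had an unadjusted p under 0.05, and over all tested genes 0.0% were called higher and 0.0141% lower. The member median was 0.13 and that of all tested genes 0.11. Of the members, 28 were above 0 and 5 below, and median-ratio scaling, which moved the median of all genes from 0.11 to 0.000327, gave 22 and 12 among the 34 members that then passed the filter. The smallest p values belonged to Adamtsl4, a fibrillin-binding protein of microfibrils, Adamts2 and Adamts6. Adamtsl4 had 27.1 and 24.9 TPM with saline and 32.9 and 28.6 TPM with BAFF, without overlap (0.23 ± 0.10, adjusted p = 0.996). Adamts2 had 1241 and 969.8 TPM with BAFF (0.29 ± 0.18, adjusted p = 0.996) and Adamts6 4.06 and 4.40 TPM with saline and 5.30 and 4.67 TPM with BAFF (0.19 ± 0.14, adjusted p = 0.996). The LPS responders did not pass with BAFF: Mmp3 had 26.0 and 10.2 TPM (-0.02 ± 0.70, adjusted p = 0.9997) and Timp1 1345 and 1085 TPM (0.05 ± 0.22, adjusted p = 0.996).

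Norepinephrine, an adrenergic agonist that drives lipolysis in fat cells, against saline also gave 0 higher and 0 lower members by limma, where 0.614% and 0.0847% of all tested genes were called. An unadjusted p under 0.05 was reached by 4 members, and the median was -0.03, against 0.04 for all tested genes. The members of smallest p were Adamtsl4, Adamtsl5 and Adamts15. Adamtsl4 had 33.6 and 36.1 TPM with norepinephrine (0.41 ± 0.10, adjusted p = 0.113). Adamtsl5, a further Adamts-like protein, had 20.5 and 16.2 TPM with saline and 33.6 and 28.4 TPM with norepinephrine, the highest pair of the 5 groups (0.73 ± 0.19, adjusted p = 0.115). Adamts15 had 3.14 and 3.29 TPM, below saline without overlap (-0.55 ± 0.14, adjusted p = 0.124).

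With the replicate number as a block in the 8 libraries, limma called Adamtsl5 (adjusted p = 0.00771) and Adamtsl4 (adjusted p = 0.0485) higher and Timp3 lower (-1.02, adjusted p = 0.0373) with norepinephrine; of all tested genes 8.44% were higher and 3.19% lower in that fit. On all 10 libraries, with the replicate shift also given to those labelled APRIL, limma with the block called none of the 3 (adjusted p = 0.0734, 0.108 and 0.0664). Timp3 had 14.2 and 34.1 TPM with norepinephrine, below the saline library of the same number in both cases. Adipocyte markers summed to 14570 and 15094 TPM with norepinephrine against 7825 and 8742 TPM with saline, with 0 of 8 called, and smooth muscle and pericyte markers to 853 and 981 TPM against 1441 and 1517 TPM, with 0 of 4 called. Neither pair of sums overlapped, and their part in these differences was not tested.

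LPS against norepinephrine gave 6 higher and 4 lower members by limma, where 3.62% and 4.19% of all tested genes were called. The higher ones were the same 6 as against saline, Mmp10 and Adamts14 among them, so this count too is not read against that share. Lower were Mmp11 and Adamts12 again, with Mmp28, a secreted protease of epithelia (-0.72 ± 0.14, adjusted p = 0.0266), and Adamts10, which binds fibrillin microfibrils (-0.58 ± 0.12, adjusted p = 0.0281). Mmp28 had 2.27 and 2.31 TPM with LPS and 4.04 and 4.83 TPM with norepinephrine, and Adamts10 19.3 and 21.1 TPM and 32.5 and 29.0 TPM, neither with overlap. LPS against BAFF gave 6 higher and 3 lower, the same 9 symbols as against saline, where 2.06% and 1.3% of all tested genes were called. The LPS against BAFF count, which holds Mmp10 and Adamts14, is not read against that share either. Fewer members were called against BAFF when LPS replicate 1 or either BAFF library was left out. The same held against norepinephrine without any single LPS or norepinephrine library. Fewer of all tested genes were called in those fits too.

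Over the 5 groups together 27 of the 33 members differed by limma's moderated F test, where 60.4% of all tested genes did. Mmp10 and Adamts14 are among the 27, so that count is not read against the share. Over the 4 groups without APRIL 11 members differed, where 12.0% of all genes did: the 9 called with LPS, with Adamts10 (adjusted p = 0.0413) and Mmp28 (adjusted p = 0.0483). Because the 9 hold Mmp10 and Adamts14, the count of 11 is not read against that share either. Leaving out any single library gave fewer members, and fewer of all tested genes. Without a filter on low values the count was 5 of 50 members, where 1151 of 24128 genes passed. With the replicate number as a block it was 16, adding Adamts4, Adamtsl5, Mmp12, Mmp13 and Timp3, where 2937 of the 14166 tested genes passed. The 6 members that did not pass over the 5 groups were Mmp2, Mmp12, Mmp15, Mmp17, Mmp27 and Adamtsl3.

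The libraries labelled APRIL differed from saline in 18 members by limma, 7 higher and 11 lower, where 33.1% and 25.0% of all tested genes were called. The member median was -0.16 and that of all tested genes 0.08, or -0.04 with median-ratio scaling. The treatment and whatever else sets these libraries apart cannot be told apart in this comparison. Of the 5 tested genes of the versican- and aggrecan-cutting group 4 were higher and Adamts5 was lower, and 2 of 3 inhibitors and 1 of 2 gelatinases were lower.

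Among the versican- and aggrecan-cutting proteases, Adamts1 (ENSMUSG00000022893, chromosome 16, 85793827 to 85803113) stood at 35.7 and 28.4 TPM with saline, 41.6 and 32.4 with BAFF, 19.8 and 27.6 with LPS, 28.4 and 31.9 with norepinephrine and 169 and 132 under the label APRIL. Those labelled APRIL were the highest by far, 2.20 ± 0.21 by limma (adjusted p = 0.000101) above saline on the log2 scale. Adamts5 (ENSMUSG00000022894, chromosome 16, 85856173 to 85901828), its neighbour 53.1 kb away on chromosome 16, stood at 40.8 and 30.0 TPM with saline, 46.0 and 30.996 with BAFF, 30.9 and 38.6 with LPS, 35.2 and 29.3 with norepinephrine and 6.41 and 9.79 under the label APRIL. Here the same pair of libraries was the lowest of the 10, at -2.01 ± 0.26 by limma (adjusted p = 0.000417), so these neighbours differed from saline in opposite directions.

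Adamts4 (ENSMUSG00000006403, chromosome 1, 171250421 to 171260637) stood at 14.6 and 11.4 TPM with saline, 17.1 and 12.1 with BAFF, 29.5 and 17.3 with LPS, 14.5 and 10.4 with norepinephrine and 29.7 and 64.8 under the label APRIL. The libraries labelled APRIL were the highest, though 1 of them was level with the first LPS library, and the difference from saline was 1.69 ± 0.39 by limma (adjusted p = 0.00718). Adamts9, with 6.93 and 8.15 TPM there, was higher by 0.97 ± 0.16 by limma (adjusted p = 0.00119), and Adamts15, with 9.37 and 8.81 TPM, by 0.71 ± 0.14 by limma (adjusted p = 0.00366). Adamts9 was thus higher than saline both with LPS and under the label APRIL, while Adamts15 was lower with LPS and higher under that label.

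Mmp9 (ENSMUSG00000017737, chromosome 2, 164940780 to 164955850) had the widest gap of the members, from 159 and 134 TPM with saline to 5.39 and 1.73 TPM under the label APRIL, -5.14 ± 0.66 by limma (adjusted p = 0.000409). The macrophage marker sums were 486 and 322 TPM in these libraries, within the range of 277 to 1498 TPM of the others, and Mmp12 stood at 75.6 and 91.3 TPM. Fibroblast and progenitor sums were 1701 and 2123 TPM, below all others, with 3 of 6 tested markers called lower. Smooth muscle and pericyte sums were 366 and 605 TPM, with 4 of 4 called lower, and adipocyte sums 5965 and 2752 TPM. The part of these cell types in the differences was not tested.

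Fibrillin-binding Adamts10 (ENSMUSG00000024299, chromosome 17, 33524204 to 33553782) stood at 24.6 and 22.1 TPM with saline, 26.4 and 25.8 with BAFF, 19.3 and 21.1 with LPS, 32.5 and 29.0 with norepinephrine and 3.95 and 3.33 under the label APRIL. The difference from saline under the label APRIL was -2.39 ± 0.12 by limma (adjusted p = 9.22e-06), without overlap with any other group. Adamts12, which fell with LPS, was lower still under the label APRIL, at 9.03 and 9.47 TPM, a difference from saline of -1.40 ± 0.11 by limma (adjusted p = 4.48e-05). Adamts6 (ENSMUSG00000046169, chromosome 13, 104287835 to 104496695), a close relative of Adamts10, stood at 4.06 and 4.40 TPM with saline, 5.30 and 4.67 with BAFF, 3.07 and 3.38 with LPS, 3.77 and 3.84 with norepinephrine and 1.45 and 1.90 under the label APRIL. Its difference from saline under that label was -0.97 ± 0.14 by limma (adjusted p = 0.000667), and the libraries labelled APRIL were the lowest.

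Mmp23 (ENSMUSG00000029061, chromosome 4, 155650655 to 155653384) stood at 90.0 and 88.0 TPM with saline, 109 and 84.9 with BAFF, 94.3 and 92.8 with LPS, 92.3 and 83.8 with norepinephrine and 28.0 and 43.2 under the label APRIL. The libraries labelled APRIL were the lowest, and the difference from saline was -1.33 ± 0.20 by limma (adjusted p = 0.000847). Mmp14 (ENSMUSG00000000957, chromosome 14, 54431612 to 54445364) stood at 203 and 182 TPM with saline, 240.4 and 192 with BAFF, 290.1 and 208 with LPS, 189 and 171 with norepinephrine and 139 and 127 under the label APRIL. The libraries labelled APRIL were the lowest there as well, -0.53 ± 0.18 by limma (adjusted p = 0.0343), but the call ended without any 1 of the 4 libraries (adjusted p from 0.0583 to 0.155).

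Of the inhibitors, Timp2 (ENSMUSG00000017466, chromosome 11, 118301069 to 118355740) stood at 299 and 271 TPM with saline, 343 and 284 with BAFF, 274 and 283 with LPS, 254 and 261 with norepinephrine and 141 and 175 under the label APRIL. The other 8 libraries lay between 254 and 343 TPM and those labelled APRIL below them, -0.85 ± 0.14 by limma (adjusted p = 0.00118). Timp1 was lower than with saline, at 515 and 739 TPM, -0.91 ± 0.22 by limma (adjusted p = 0.00895), a call that ended without saline replicate 1. Timp3, at 18.8 and 30.9 TPM, did not pass, with a difference of -0.90 ± 0.45 by limma (adjusted p = 0.121).

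Mmp11, at 538 and 545 TPM under the label APRIL, was higher than saline by 0.85 ± 0.24 by limma (adjusted p = 0.0156), a call that ended without any 1 of the 4 libraries (0.0510 to 0.0678). Mmp28 (ENSMUSG00000020682, chromosome 11, 83440768 to 83463071) stood at 3.26 and 4.01 TPM with saline, 3.93 and 4.32 with BAFF, 2.27 and 2.31 with LPS, 4.04 and 4.83 with norepinephrine and 5.83 and 5.14 under the label APRIL. It was lowest with LPS and highest under the label APRIL, 0.49 ± 0.14 by limma (adjusted p = 0.0202) over saline. Mmp19 (ENSMUSG00000025355, chromosome 10, 128790910 to 128800824), a protease of basement membrane proteins, stood at 31.4 and 28.5 TPM with saline, 32.9 and 31.3 with BAFF, 34.3 and 33.6 with LPS, 26.5 and 32.5 with norepinephrine and 20.0 and 23.3 under the label APRIL. The other 8 libraries lay within a narrow range, and those labelled APRIL were lower, -0.45 ± 0.13 by limma (adjusted p = 0.0165). Of the 31-base words of Mmp19, 26.7% occur in other genes' transcripts, mostly of Tmem198b on the opposite strand. For Mmp28 it was 11.1%, shared with 1700020L24Rik on the opposite strand.

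Of the Adamts-like genes, Adamtsl1 (ENSMUSG00000066113, chromosome 4, 85514172 to 86428385) stood at 13.7 and 11.1 TPM with saline, 12.5 and 11.2 with BAFF, 18.4 and 16.5 with LPS, 11.1 and 16.0 with norepinephrine and 5.57 and 8.48 under the label APRIL. It was lowest under the label APRIL, -0.75 ± 0.22 by limma (adjusted p = 0.0205). Adamtsl2 (ENSMUSG00000036040, chromosome 2, 27079379 to 27108981), which binds fibrillin and a TGF-beta binding protein, stood at 1.81 and 1.17 TPM with saline, 1.97 and 1.82 with BAFF, 0.735 and 0.960 with LPS, 1.36 and 0.751 with norepinephrine and 2.83 and 6.73 under the label APRIL. The libraries labelled APRIL were the highest but far from each other, 1.14 ± 0.33 by limma (adjusted p = 0.0180).

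Several of these calls rested on 1 library. For Mmp19, Adamtsl1 and Mmp28 they ended without APRIL replicate 1 (adjusted p = 0.0656, 0.107 and 0.0711) or saline replicate 1 (0.1002, 0.117 and 0.136), and for Adamtsl2 without APRIL replicate 2 (0.0733) or saline replicate 2 (0.0998). Members not yet described were low: Mmp15, Mmp17, Mmp27 and Adamtsl3 lay between 0.140 and 2.35 TPM in all libraries, with no call against saline.

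BAFF against the libraries labelled APRIL compares libraries labelled with the ligands named in the series title, at the same dose. Here too the ligand and whatever else sets the libraries labelled APRIL apart cannot be told apart. By limma 14 members were higher with BAFF and 5 lower, where 28.3% and 29.0% of all tested genes were called. Lower with BAFF were Adamts1, Adamts4, Adamts9, Adamts15 and Adamtsl2, the last at 1.97 and 1.82 TPM with BAFF and 2.83 and 6.73 TPM in the libraries labelled APRIL. Higher were the genes lower than saline in the libraries labelled APRIL, with Adamts2, Adamtsl4 and Mmp17 besides. Mmp17, a membrane-type protease held by a lipid anchor, had 2.19 and 2.18 TPM with BAFF and 0.980 and 1.46 TPM there.

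Other genes of matrix proteolysis, from a list of 64 of which 53 were tested, gave 3 higher and 2 lower with LPS by limma (20 at an unadjusted p under 0.05), where 2.87% and 0.932% of all tested genes were called. Serpinb2, the plasminogen activator inhibitor 2, rose from 1.11 and 0.722 TPM to 60.1 and 56.9 TPM (4.96 ± 0.30, adjusted p = 0.000454). Tfpi2, a matrix-bound serine protease inhibitor, rose from 14.1 and 11.2 to 32.1 and 27.6 TPM (1.18 ± 0.22, adjusted p = 0.0295). The proprotein convertase Pcsk6 (-1.43 ± 0.18, adjusted p = 0.00678) and the microfibril gene Fbn2 (-1.28 ± 0.23, adjusted p = 0.0268) fell. With BAFF and with norepinephrine 0 of the 53 passed in either direction (1 and 7 at an unadjusted p under 0.05). In the libraries labelled APRIL 4 were higher and 23 lower, where 33.1% and 25.0% of all tested genes were, the smallest p values being those of S100a10, Thbs1, Fbn1 and Bmp1, all lower; Fbn1, the main fibrillin, had 249 and 241 TPM with saline and 38.4 and 38.1 TPM there.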

How the data were processed

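RNA was sequenced from 10 libraries. The authors deposited TPM values per gene for each; kallisto and mm10 are named per the submitters' processing notes, while the annotation release, the summing to genes, strand use and any filter are not given in the sources used here. Identifiers were matched to GENCODE M21 symbols (27458 of 28987). A gene entered the tests when 2 or more libraries had it at 1 TPM or above. Values were log2(TPM + 1), fitted by limma 3.58.1 (R 4.3.3), with a mean-variance trend and 1 fit of the 5 group means (5 residual degrees of freedom); p-values were adjusted by Benjamini-Hochberg over all tested genes and called under 0.05. The procedure was tested on simulated data. Figures used Python 3.11.15 and matplotlib 3.10.9. Promoters came from RefSeq, with an entry for 36 of the 51 members.

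The members and lists were chosen with earlier results of these data known. Members past the threshold were named, with those of smallest p where none passed, and at most 4 genes per comparison of the other matrix list; the highest genes of each family, the gelatinases, Mmp3, Mmp13, Mmp14, Adamts1, Adamts4 and Adamts5 were named whatever their values. Comp and the low members of the chromosome 9 cluster were added after their values were seen.

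Replicate numbers come from the sample titles, which do not say what a number marks. Differences between replicate 1 and replicate 2 correlated across genes at 0.272 to 0.479 for the 6 pairs among saline, BAFF, LPS and norepinephrine, and at -0.108 to 0.0264 with APRIL, so numbers were taken to pair the first 4 groups. Across the tested members alone these differences correlated more closely, at 0.545 to 0.846 among the first 4 groups and at -0.197 to 0.242 with APRIL. The tests reported first carry no block, and fits with the number as a block stand beside them. The fits that leave out a library carry no block either, so the difference between replicate numbers stays in their error. All 9 members called for LPS against saline were also called in both block fits. The alternatives were other pseudocounts and filters, median-ratio scaling, a replicate block, fits of the compared groups alone or without APRIL, and leaving out each library.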

Additional observations from a re-analysis of the deposited data

How the results depend on the processing

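Depth is unknown, so low members are limited by an unmeasured counting error, and 2 libraries a group leave each call resting on few values. Fitting only the compared groups gave 3 called members for LPS against saline (9 with all groups), 5 for LPS against BAFF (9) and 5 for LPS against norepinephrine (10). Leaving out 1 library gave 2 to 9, 1 to 9 and 5 to 7 for these comparisons, and 6 to 9 for any difference over 4 groups (11), which no filter on low values brought to 5. Median-ratio scaling moved the mean summed level with LPS from 957 to 1012 TPM for ADAMTS and from 76.3 to 80.7 TPM for ADAMTSL. The cause of these shifts was not tested.

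A replicate block without the libraries labelled APRIL, chosen after seeing the data, gave 15 called members for LPS against saline and 16 for LPS against BAFF. It gave 17 for LPS against norepinephrine and 3 for norepinephrine against saline (0 without it). Of the 14166 tested genes that fit called 1647, 1757, 3147 and 1648. A block on all 10 libraries, which also gives those labelled APRIL the replicate shift, gave 10, 11, 11 and 0 members. There 683, 578, 1306 and 167 of all tested genes were called. For any difference over 4 groups the block gave 16 members and 2937 genes. With BAFF against saline both blocks gave 0 members. The counts with LPS and over 4 groups hold Mmp10 and Adamts14, so they are not read against these figures.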
